A study of Mus musculus with 6 samples.

Results

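The genes described here are 10 regulators and markers of the epithelial-mesenchymal transition (EMT), measured by RNA-Seq in irradiated mouse prostate. They were picked by gene symbol: the transcription factors Snai1, Snai2, Twist1, Zeb1 and Zeb2, the mesenchymal markers Vim, Fn1 and Cdh2, and the epithelial markers Cdh1 and Epcam. All 10 were found among the 47719 gene identifiers, and 9 of them were among the 13818 genes with a mean of at least 1 FPKM over the 6 mice, which were the genes tested. Cdh2, with a mean of 0.969 FPKM, lay just under that limit. FPKM is a fragment count scaled to transcript length and to the mapped fragments of the library. Levels can thus be compared between genes, and between mice only as shares of a library, which a few very abundant genes can shift.

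The mice belonged to the strain B6.129S4-Trp53tm3.1Tyj/J, in which the Trp53 R270H mutation lies in the mouse's own Trp53 gene, with no Cre or tissue-specific promoter named in the labels or methods. Wildtype mice 39 and 41 were Trp53+/+, heterozygous mice 37 and 40 carried 1 R270H allele, while mice 47 and 49 were homozygous with 2 such alleles (animal numbers as in the labels). The whole body of every mouse was exposed to 5 Gy at an age of about 3 months, and prostates were taken 6 h afterwards. No unirradiated mouse was measured, and neither the prostate lobe nor a litter or batch is named in the labels.

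In EMT, epithelial cells give up the junctions that bind them to their neighbours and take on the shape and movement of mesenchymal cells. Zinc finger factors of the Snail and Zeb families and the helix-loop-helix factor Twist1 drive this switch, and the Snail and Zeb proteins repress Cdh1 by binding E-box sequences in its promoter. A dissected prostate also holds stroma, vessels and immune cells that express Vim, Fn1, Zeb1, Zeb2 and Twist1 in their normal state, and basal epithelial cells can express Snai2. In these bulk samples, fewer cells of a type and less RNA per cell cannot be told apart.

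The upstream sequences of Epcam and Snai1 are shown because they hold the E-box form CAGGTG that Snail and Zeb proteins are known to bind, in an epithelial marker and in the gene of a repressor. RefSeq promoter windows of GRCm38.p6, each running from 250 bases before to 50 bases after a start site, were matched for 5 of the 10 genes, namely Epcam, Snai1, Twist1, Vim and Zeb2. Both sequences below are the 250 bases before the start site on the plus strand, chr17:87635729-87635978 for Epcam and chr2:167537945-167538194 for Snai1, with CAGGTG or its reverse complement CACCTG in capitals.
Epcam: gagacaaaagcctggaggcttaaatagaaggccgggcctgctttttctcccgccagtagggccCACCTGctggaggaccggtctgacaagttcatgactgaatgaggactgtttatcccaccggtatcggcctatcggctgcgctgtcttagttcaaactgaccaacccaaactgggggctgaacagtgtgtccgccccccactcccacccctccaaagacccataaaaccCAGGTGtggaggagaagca
Snai1: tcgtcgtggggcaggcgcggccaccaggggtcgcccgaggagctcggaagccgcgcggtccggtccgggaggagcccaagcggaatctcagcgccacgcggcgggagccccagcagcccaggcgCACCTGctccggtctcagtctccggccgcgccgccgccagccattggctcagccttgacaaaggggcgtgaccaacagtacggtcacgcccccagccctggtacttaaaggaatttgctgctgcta
Epcam held 2 copies, which began 187 and 19 bases before the start site, and Snai1 held 1 copy, which began 126 bases before it. The windows of Twist1, Vim and Zeb2 held 0. Of all 32851 windows of 300 bases, 20.2% held at least 1 copy on either strand and 2.88% held at least 2. These matches describe letters in the windows only.

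The libraries were alike in their totals. The FPKM of a mouse summed to between 518671 and 636407, between 13452 and 13827 genes reached 1 FPKM, and the median level of the tested genes differed from the mean over mice by at most 0.024 on the log2 scale. The files hold no fragment counts, so the counting error of a value is unknown. The number of fragments relative to mouse 39 was only estimated, from the most frequent ratio of FPKM among genes of very low level. The estimates lay between 0.79 and 1.07. Luminal epithelial markers were present in every mouse, but homozygous mouse 47 stood apart: Pbsn, an androgen-driven secretory gene of the prostate, was at 257 FPKM there and at 7329 to 11512 FPKM in the other 5 mice. The seminal vesicle genes Svs2, Svs4 and Svs5 were listed at 0 in mouse 47, and Svs2 also in mouse 49, whereas Svs6, of the same gene group, was at 26147 FPKM in mouse 47 and at 28.6 to 1021 FPKM in the other 5 mice. Wildtype mouse 39 also differed in these genes. Svs2, Svs4, Svs5 and Svs6 summed to 3346 FPKM in mouse 39 and to between 26147 and 53082 FPKM in the other 5 mice. Homozygous differences of the 9 tested members and list medians are also given without mouse 47, whereas all other values are given with it only.

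The 10 genes spanned a wide range of levels. Epcam was highest, with a mean of 196 FPKM over the 6 mice (155 to 239 FPKM), and its lowest mouse lay above the highest mouse of every other member. Vim followed at 101 FPKM (70.8 to 133 FPKM) and Cdh1 at 75.6 FPKM (65.1 to 94.9 FPKM). The ranges of these 2 genes overlapped, and Vim was above Cdh1 in 5 of 6 mice. Fn1 lay below both at 35.6 FPKM (28.7 to 42.9 FPKM) and did not overlap with either neighbour in the order. All 5 transcription factors lay between 2.12 and 6.45 FPKM, in the order Zeb1, Zeb2, Twist1, Snai1 and Snai2. Neighbours among the 5 overlapped, although Zeb1 was above Zeb2 in 6 of 6 mice. Cdh2 came last, with 0.759 to 1.19 FPKM.

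**Figure D1:**
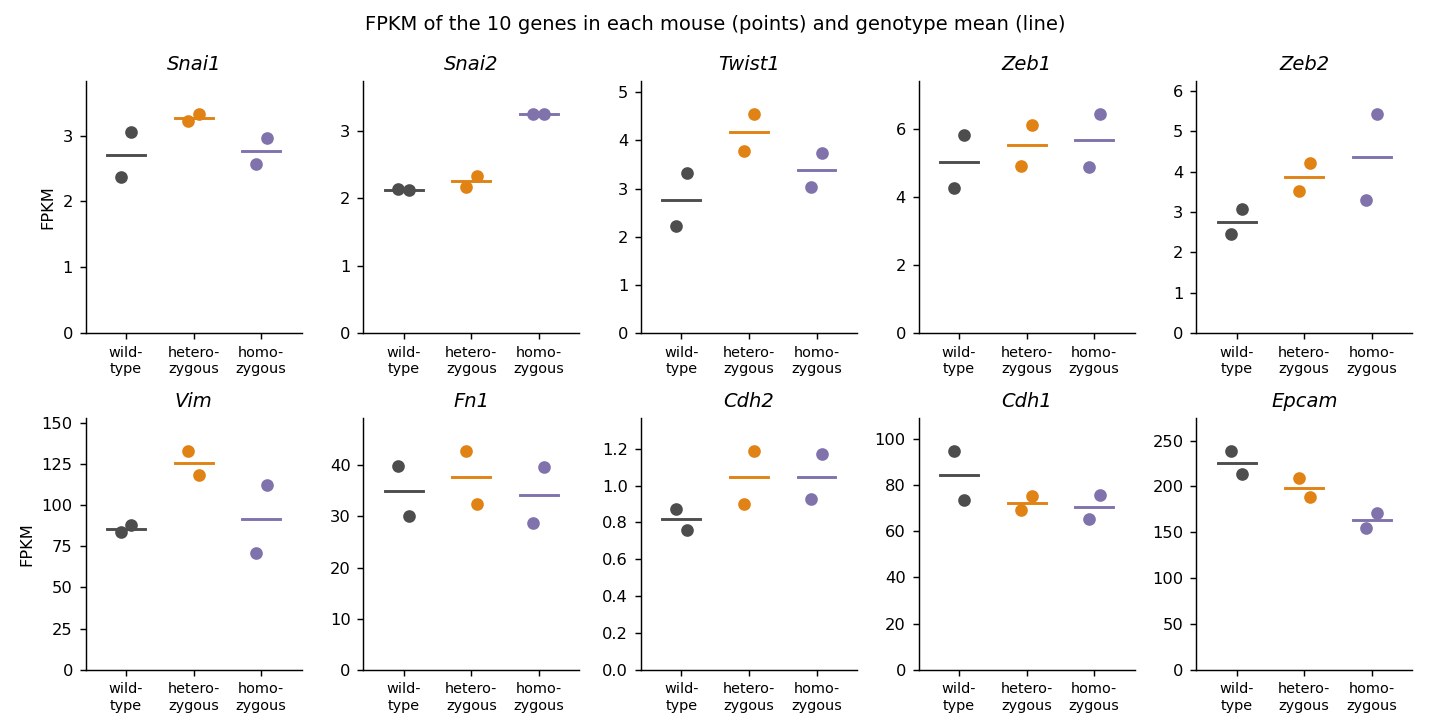
Level of each gene in FPKM (y axis, starting at 0, own scale in each panel) in the 6 mice by genotype. Points are mice and lines are means of 2 mice. Snai2 is higher in both homozygous mice (3.25 and 3.25 FPKM) than in the other 4, and Epcam is lowest in them (155 and 171 FPKM).

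None of the 9 tested genes passed the test of a difference between genotypes after adjustment over all tested genes. With limma and Benjamini-Hochberg adjustment, 0 of 9 passed an adjusted p of 0.05 in the F-test across the 3 genotypes, where 0.101% of all tested genes passed. The same holds for heterozygous against wildtype mice (0% of all genes), for homozygous against wildtype mice (0.384% of all genes) and for homozygous against heterozygous mice (0.0145% of all genes). A test on each gene alone also called 0 of 9 in each of these comparisons. At an unadjusted p under 0.05, 0 of 9 were called in heterozygous against wildtype mice, beside 6.87% of all genes. In homozygous against wildtype mice 2 of 9 were called, Snai2 and Epcam, beside 18.0% of all genes. In homozygous against heterozygous mice 1 of 9 was called, Snai2, beside 6.39% of all genes. The unadjusted F-test called 1 of 9, again Snai2, beside 11.5% of all genes.

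The criterion of an unadjusted p under 0.05 with a change of at least 1.5-fold across the 3 genotypes was met by 1 of 9 genes, Snai2, beside 8.31% of all tested genes. Snai2 no longer met it when any 1 of the 6 mice was left out. The count was then 0 without mouse 39, 41, 37 or 40, while Zeb2 alone met the criterion without mouse 47 (1.94-fold) and Vim alone without mouse 49 (1.77-fold). The count was also 0 with a pseudocount of 1 and with quantile normalization. The size of the homozygous difference of Snai2 to wildtype stayed at 0.59 on the log2 scale with each of the 6 mice left out. The median difference of the 9 genes on the log2 scale was 0.14 in heterozygous against wildtype mice and 0.06 in homozygous against wildtype mice, against -0.01 and -0.04 over all tested genes. The pooled SD within genotypes, on the log2 scale, had a median of 0.240 over all members, with the untested Cdh2 (0.208) included. It was 0.188 over all tested genes.

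Genes with no overlap between 2 genotypes were counted in each direction, beside the share of all tested genes. Heterozygous values lay above both wildtype values for 5 of 9 genes (Snai1, Snai2, Twist1, Zeb2 and Vim), beside 19.2% of all genes, and below them for 1 gene, Epcam, beside 19.9%. Homozygous values lay above both wildtype values for 2 genes, Snai2 and Zeb2, beside 21.3% of all genes, and below them for Epcam alone, beside 28.7%. Homozygous values lay above both heterozygous values for Snai2, beside 18.0% of all genes, and below them for 4 genes (Snai1, Twist1, Vim and Epcam), beside 24.1%. Only Snai2 was ordered upward with the number of R270H alleles in all 6 mice, beside 3.85% of all genes, and only Epcam downward, beside 4.98%. After quantile normalization 0 of 9 genes were ordered in either direction. Cdh2, which was not tested, was also higher in all 4 mice with an R270H allele than in both wildtype mice.

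**Figure D2:**
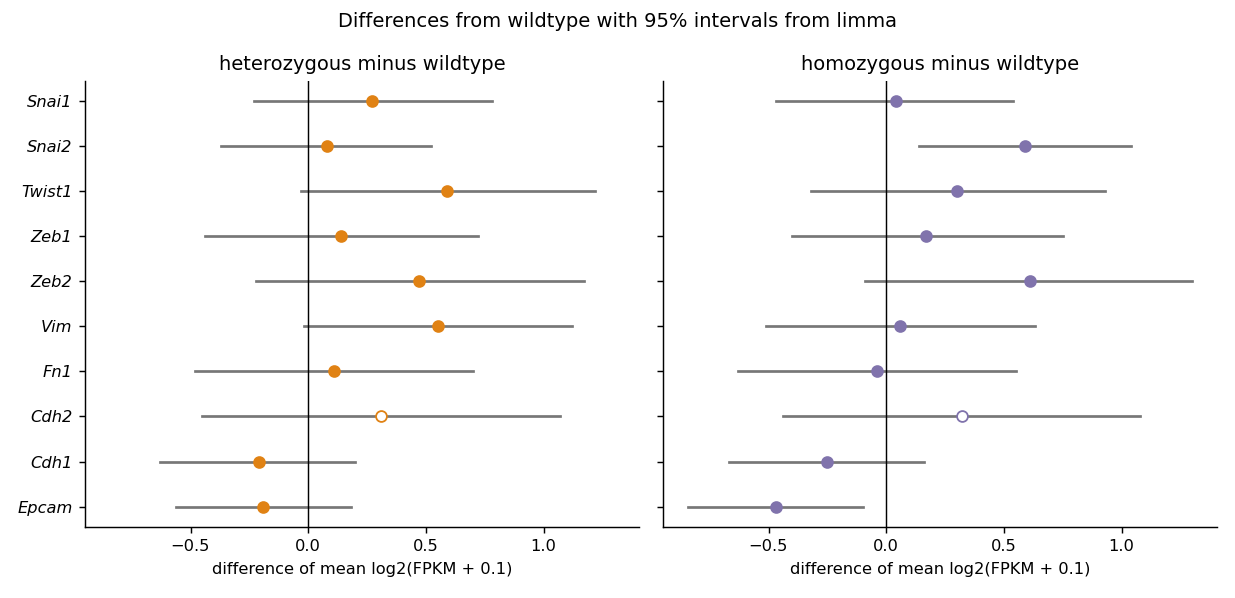
Differences of mean log2(FPKM + 0.1) from wildtype (x axis) with 95% intervals from limma for each gene (y axis), 2 mice per genotype. The open circle marks Cdh2, taken from the fit without a filter. In homozygous mice the intervals of Snai2 (0.14 to 1.04) and Epcam (-0.84 to -0.10) lie to one side of 0, and all others cross it, as do all intervals in heterozygous mice.

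Snai2, also known as Slug, encodes a zinc finger repressor of the Snail family that marks migrating neural crest cells and many basal cells. The gene (ENSMUSG00000022676) occupies bases 14705852 to 14709385 of chromosome 16, plus strand, in GRCm38. Its level was 2.13 and 2.12 FPKM in the wildtype mice, 2.17 and 2.33 FPKM in the heterozygous mice, and 3.25 and 3.25 FPKM in the homozygous mice. The wildtype mean was 2.12 ± 0.0104 FPKM and the heterozygous mean 2.25 ± 0.115 FPKM (SD, n = 2 each). Both homozygous mice were above the other 4, and replicates differed less than for any other member, with a pooled SD of 0.0409 on the log2 scale. On the log2(FPKM + 0.1) scale, which slightly understates changes at this level, the homozygous mice were 0.59 above wildtype (SE 0.18, 95% interval 0.14 to 1.04, adjusted p = 0.209, a 1.51-fold difference). They were 0.51 above heterozygous mice (interval 0.06 to 0.96, adjusted p = 0.707), and heterozygous mice were 0.08 above wildtype (interval -0.37 to 0.52, adjusted p = 0.971). The homozygous difference of Snai2 to wildtype was also 0.59 without mouse 47. Its adjusted p lay between 0.157 and 0.422 under the alternatives.

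Snai1, the founding Snail family repressor of Cdh1, showed no such pattern. Its position is 167538195 to 167542814 of chromosome 2, plus strand (ENSMUSG00000042821). The levels were 2.37 and 3.05 FPKM in wildtype, 3.22 and 3.33 FPKM in heterozygous and 2.57 and 2.97 FPKM in homozygous mice. The heterozygous values were highest, while homozygous and wildtype values overlapped. The difference to wildtype was 0.27 in heterozygous mice (SE 0.20, interval -0.23 to 0.78, adjusted p = 0.879) and 0.04 in homozygous mice (interval -0.47 to 0.54, adjusted p = 0.943, and 0.14 without mouse 47). The level of Snai2 divided by that of Snai1 was 0.898 and 0.693 in wildtype, 0.673 and 0.699 in heterozygous, and 1.26 and 1.09 in animals homozygous for R270H, so that Snai2 exceeded Snai1 in the homozygous mice only.

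Twist1, a helix-loop-helix factor of mesoderm and mesenchyme, was highest in heterozygous mice. The gene (ENSMUSG00000035799) lies at 33957671 to 33959829 of chromosome 12, plus strand. Its level was 2.22 and 3.32 FPKM in wildtype, 3.79 and 4.55 FPKM in heterozygous, and 3.04 and 3.74 FPKM in homozygous mice. The heterozygous values lay above all others, and the homozygous values overlapped with wildtype. The difference to wildtype was 0.59 in heterozygous mice (SE 0.25, interval -0.03 to 1.22, adjusted p = 0.757) and 0.30 in homozygous mice (interval -0.32 to 0.93, adjusted p = 0.556). With 1 mouse left out, the heterozygous difference of Twist1 was between 0.32 (without mouse 39) and 0.87 (without mouse 41), and the homozygous one between 0.02 and 0.58 (without the same mice), with 0.45 without mouse 47.

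Zeb1 and Zeb2 encode a pair of large zinc finger repressors that are active in many stromal, nerve and immune cells. Zeb1 is listed under ENSMUSG00000024238 on chromosome 18 from 5591860 to 5775467, on the plus strand, and Zeb2 under ENSMUSG00000026872 on chromosome 2 from 44983632 to 45117395, on the minus strand. The level of Zeb1 was 4.26 and 5.82 FPKM in wildtype, 4.91 and 6.13 FPKM in heterozygous, and 4.90 and 6.45 FPKM in homozygous mice. All 3 genotypes overlapped, and Zeb1 differed from wildtype by 0.14 in heterozygous mice (interval -0.44 to 0.72, adjusted p = 0.962) and by 0.17 in homozygous mice (interval -0.40 to 0.75, adjusted p = 0.718). Without mouse 47 the homozygous difference of Zeb1 was 0.37.

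The level of Zeb2 was 2.45 and 3.07 FPKM in wildtype, 3.51 and 4.22 FPKM in heterozygous, and 3.29 and 5.43 FPKM in homozygous mice. All 4 mice with an R270H allele lay above both wildtype mice. The difference was 0.47 in heterozygous mice (interval -0.22 to 1.17, adjusted p = 0.856) and 0.61 in homozygous mice (SE 0.28, interval -0.09 to 1.30, adjusted p = 0.326), where Zeb2 had the largest spread of the tested members (pooled SD 0.333). The homozygous difference of Zeb2 was 0.96 without mouse 47 and 0.25 without mouse 49. The ratio of Zeb2 to Zeb1 was 0.576 and 0.527 in wildtype, 0.715 and 0.688 in heterozygous, and 0.670 and 0.841 in animals homozygous for R270H, higher in all 4 mutant mice than in wildtype.

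**Figure D3:**
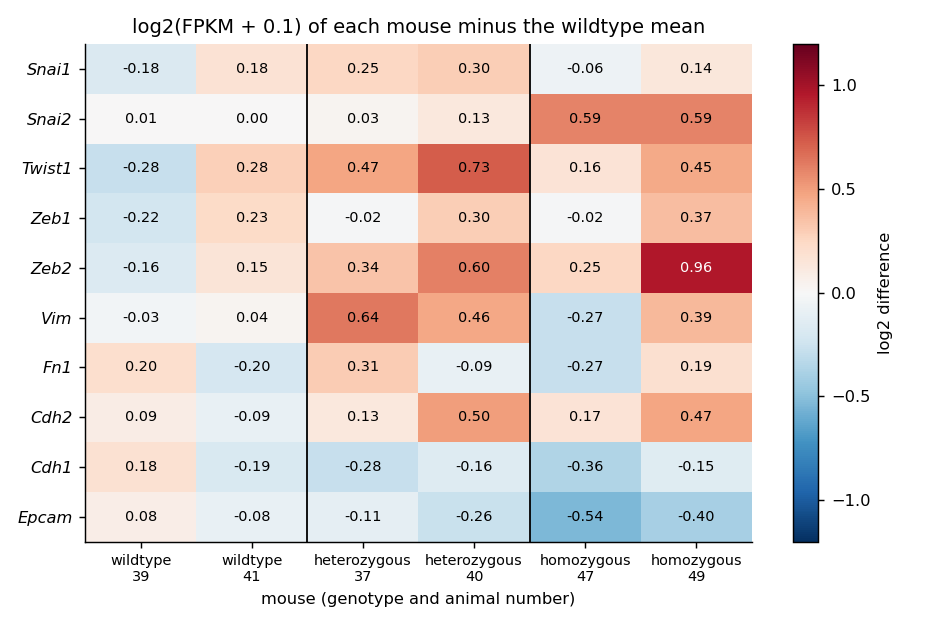
Difference of log2(FPKM + 0.1) of each mouse (columns, by genotype and animal number) from the wildtype mean, for the 10 genes (rows); red is higher and blue is lower. Twist1 reaches 0.73 and Vim 0.64 in heterozygous mice, Zeb2 reaches 0.96 in homozygous mouse 49, and Vim and Fn1 are both at -0.27 in homozygous mouse 47.

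Vim encodes vimentin, the intermediate filament of mesenchymal cells, fibroblasts, endothelium and leukocytes. Its position is 13573927 to 13582826 of chromosome 2, plus strand (ENSMUSG00000026728). Its level was 83.5 and 87.7 FPKM in wildtype, 133 and 118 FPKM in heterozygous, and 70.8 and 112 FPKM in homozygous mice. The means were 85.6 ± 2.96, 126 ± 11.1 and 91.4 ± 29.1 FPKM (SD, n = 2 each). Both heterozygous mice lay above all others, and the homozygous mice lay on either side of wildtype. The difference to wildtype was 0.55 in heterozygous mice (SE 0.23, interval -0.02 to 1.12, adjusted p = 0.756, 1.46-fold) and 0.06 in homozygous mice (interval -0.51 to 0.63, adjusted p = 0.915). The homozygous difference was 0.39 without mouse 47 and -0.27 without mouse 49.

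Fn1 encodes fibronectin, a matrix glycoprotein to which cells attach through integrins. The gene (ENSMUSG00000026193) lies at 71585520 to 71653200 of chromosome 1, minus strand. Its level was 39.9 and 30.1 FPKM in wildtype, 42.9 and 32.5 FPKM in heterozygous, and 28.7 and 39.6 FPKM in homozygous mice. All genotypes overlapped. Its difference to wildtype was 0.11 in heterozygous mice (interval -0.48 to 0.70, adjusted p = 0.971) and -0.04 in homozygous mice (interval -0.63 to 0.55, adjusted p = 0.943, and 0.19 without mouse 47).

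Cdh2 encodes N-cadherin, the cadherin of nerve and mesenchymal cells that replaces E-cadherin in a full EMT. Its position is 16588877 to 16809246 of chromosome 18, minus strand (ENSMUSG00000024304). Its level was 0.873 and 0.759 FPKM in wildtype, 0.900 and 1.19 FPKM in heterozygous, and 0.927 and 1.17 FPKM in homozygous mice. All 4 mutant mice lay above both wildtype mice, but at a level near 1 FPKM. In the fit without a filter, over 26087 genes, the difference to wildtype was 0.31 in heterozygous mice (interval -0.45 to 1.07, adjusted p = 0.884) and 0.32 in homozygous mice (interval -0.44 to 1.08, adjusted p = 0.670).

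Epcam encodes an adhesion protein of the epithelial cell surface. The gene (ENSMUSG00000045394) lies at 87635979 to 87651129 of chromosome 17, plus strand. Its level was 239 and 213 FPKM in wildtype, 209 and 188 FPKM in heterozygous, and 155 and 171 FPKM in homozygous mice. The means were 226 ± 18.5, 198 ± 14.5 and 163 ± 11.4 FPKM (SD, n = 2 each). Each genotype lay below the one before it with no overlap, although the gap between the lower wildtype and the higher heterozygous mouse was smaller than the gap within either genotype. The homozygous mice were below wildtype by a log2 difference of -0.47 (SE 0.15, interval -0.84 to -0.10, adjusted p = 0.212), a fold of 0.721. The heterozygous mice differed from wildtype by -0.19 (interval -0.56 to 0.18, adjusted p = 0.889), and the homozygous from the heterozygous mice by -0.28 (interval -0.65 to 0.09, adjusted p = 0.707). Without mouse 47 the difference of homozygous to wildtype mice was -0.40.

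Cdh1 encodes E-cadherin, the calcium-dependent adhesion protein of epithelial junctions. Its position is 106603351 to 106670246 of chromosome 8, plus strand (ENSMUSG00000000303). Its level was 94.9 and 73.6 FPKM in wildtype, 69.1 and 75.1 FPKM in heterozygous, and 65.1 and 75.6 FPKM in homozygous mice. Wildtype mouse 39 was highest, and the other 5 mice lay close together, so that the genotypes overlapped. The difference to wildtype was -0.21 in heterozygous mice (interval -0.63 to 0.20, adjusted p = 0.887) and -0.25 in homozygous mice (interval -0.67 to 0.16, adjusted p = 0.472). The homozygous difference of Cdh1 was -0.15 without mouse 47. It was -0.07 without wildtype mouse 39 and -0.44 without wildtype mouse 41.

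Ratios within a mouse set the epithelial against the mesenchymal markers, and are given without a test. E-cadherin transcript exceeded N-cadherin transcript by a wide margin in every mouse: the ratio of Cdh1 to Cdh2 was 109 and 97.0 in wildtype, 76.8 and 63.2 in heterozygous, and 70.2 and 64.6 in animals homozygous for R270H. It was lower in all 4 mutant mice than in both wildtype mice. The ratio of Vim to Epcam was 0.349 and 0.411 in wildtype, 0.640 and 0.626 in heterozygous, and 0.457 and 0.655 in animals homozygous for R270H, and was higher in all 4 mutant mice. The ratio of Vim to Cdh1 was 0.880 and 1.19 in wildtype, 1.93 and 1.57 in heterozygous, and 1.09 and 1.48 in animals homozygous for R270H, so that the homozygous values overlapped with wildtype.

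Among 15 EMT transcription factors outside the members, of which 14 were tested, 0 passed the adjusted test in any comparison. Their median difference to wildtype was 0.25 in heterozygous mice and 0.18 in homozygous mice, and 10 of 14 were above wildtype in each. The homozygous median was 0.25 without mouse 47. Heterozygous values lay above both wildtype values for 7 of 14 and below them for 0, beside 19.2% and 19.9% of all tested genes. The gene with the largest homozygous difference was Foxc1, a forkhead factor of mesenchyme, at 5.47 and 5.74 FPKM in wildtype, 7.33 and 8.40 FPKM in heterozygous, and 9.82 and 9.34 FPKM in homozygous mice (log2 difference homozygous to wildtype 0.76, SE 0.13, adjusted p = 0.106). Snai3, the third Snail gene, was at 1.07 and 1.23 FPKM in wildtype mice and at 2.66 and 2.25 FPKM in heterozygous mice (log2 difference 1.03, adjusted p = 0.430), with 1.49 and 1.83 FPKM in homozygous mice (log2 difference 0.49, adjusted p = 0.371).

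Among 20 ligands, receptors and signal carriers of pathways linked to EMT, which are not all inducers of it, 18 were tested and 0 passed. Their median differed little from wildtype, by -0.02 in heterozygous and -0.09 in homozygous mice, and the homozygous median was 0.14 without mouse 47. Tgfb1, the best known inducer of EMT, was at 7.13 and 9.78 FPKM in wildtype, 12.9 and 12.4 FPKM in heterozygous, and 11.4 and 13.1 FPKM in homozygous mice (log2 difference 0.60, adjusted p = 0.547, and 0.54, adjusted p = 0.225). All 4 mutant mice lay above wildtype for Tgfb1. Tgfb2 went the other way (11.6 and 9.9 FPKM in wildtype, 9.06 and 9.79 in heterozygous, 6.86 and 9.23 in homozygous mice). Tgfb3 was above wildtype (11.4 and 11.2 FPKM) in heterozygous mice (12.4 and 12.2) and below it in homozygous mice (10.4 and 10.5). The largest homozygous difference of the list was that of Bmp7 (-1.4, SE 0.4, adjusted p = 0.19), at 24.7 and 30.9 FPKM in wildtype and 6.76 and 16.0 in homozygous mice. Notch1, a receptor with roles in prostate epithelium, was at 15.7 and 18.0 FPKM in wildtype, 9.15 and 11.1 FPKM in heterozygous, and 6.78 and 8.63 FPKM in homozygous mice, with a homozygous log2 difference of -1.12 (SE 0.18, adjusted p = 0.0870).

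Cadherins are held to the cytoskeleton by catenins. Of 6 cadherin partners 5 were tested, 0 passed, and all 5 were lower in homozygous than in wildtype mice, with a median of -0.21 (-0.13 without mouse 47). Homozygous values lay below both wildtype values for 4 of 5, beside 28.7% of all tested genes. The largest homozygous difference was that of Plekha7 (-0.65, SE 0.16, adjusted p = 0.164). Plekha7 was at 7.90 and 6.40 FPKM in wildtype, 5.01 and 5.45 FPKM in heterozygous, and 4.69 and 4.30 FPKM in homozygous mice. Ctnnb1, beta-catenin, was at 162 and 132 FPKM in wildtype, 123 and 145 FPKM in heterozygous, and 116 and 138 FPKM in homozygous mice, which overlapped (adjusted p = 0.569 for homozygous against wildtype). Of 10 other cadherins 5 were tested and 0 passed. Cdh5, the cadherin of endothelium, was at 5.54 and 5.15 FPKM in wildtype, 7.30 and 8.25 FPKM in heterozygous, and 8.05 and 10 FPKM in homozygous mice (homozygous log2 difference 0.74, adjusted p = 0.142).

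A wider epithelial list of 36 junction, keratin and regulator genes and a mesenchymal list of 39 matrix, adhesion and contractile genes lay on opposite sides of wildtype. Of 35 epithelial genes tested, 27 were below wildtype in heterozygous mice (median -0.12) and 28 in homozygous mice (median -0.25). Of 36 mesenchymal genes tested, 30 were above wildtype in heterozygous mice (median 0.20) and 28 in homozygous mice (median 0.17). Of all tested genes, 47.2% were above wildtype in heterozygous and 45.0% in homozygous mice, with medians of -0.01 and -0.04. Heterozygous values lay above both wildtype values for 21 mesenchymal and 2 epithelial genes, beside 19.2% of all tested genes. They lay below both for 0 and 13, beside 19.9%. Homozygous values lay above both wildtype values for only 4 mesenchymal and 2 epithelial genes, beside 21.3%. They lay below both for 2 and 18, beside 28.7%. None of these genes passed the adjusted test in any comparison, and at an unadjusted p under 0.05 homozygous against wildtype mice gave 1 epithelial gene higher and 6 lower, and 1 mesenchymal gene higher and 1 lower, beside 18.0% of all tested genes in both directions together. Without mouse 47 the homozygous medians were -0.27 and 0.44. Cldn4, a claudin of tight junctions, was at 189 and 208 FPKM in wildtype, 160 and 135 FPKM in heterozygous, and 102 and 109 FPKM in homozygous mice (homozygous log2 difference -0.91, SE 0.15, adjusted p = 0.0929). Cldn1, another claudin, lay on the other side, with 4.54 and 8.77 FPKM in wildtype and 15.0 and 14.0 FPKM in homozygous mice (log2 difference 1.18, SE 0.32, adjusted p = 0.182).

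**Figure D4:**
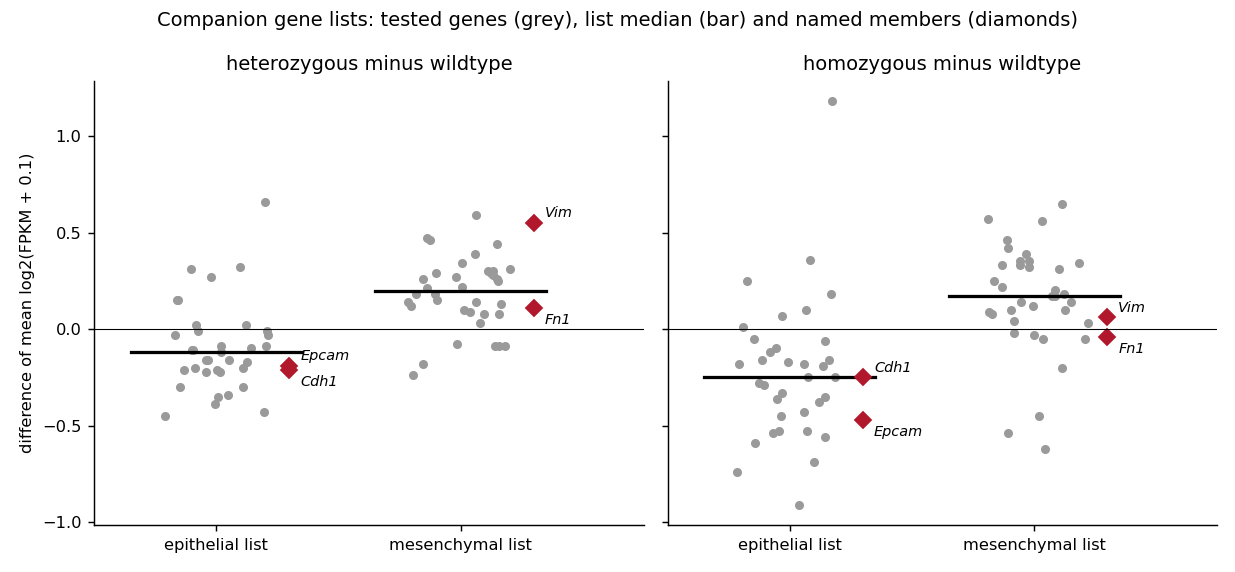
Differences of mean log2(FPKM + 0.1) from wildtype (y axis) for the tested genes of the epithelial and mesenchymal lists (grey points, spread sideways for visibility), with the list median (bar) and Cdh1, Epcam, Vim and Fn1 (diamonds), which are not in the lists. The epithelial medians are -0.12 and -0.25 and the mesenchymal medians 0.20 and 0.17.

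Markers of other cell types also differed in level between the mice. Some of them are also in the lists above. Krt8 and Krt18 are in the epithelial and luminal lists, Acta2 and Tagln in the mesenchymal and smooth muscle lists, and Cdh5 in the cadherin and endothelial lists. The summed level of 6 fibroblast markers was 401 to 434 FPKM in wildtype, 489 to 530 FPKM in heterozygous and 298 to 683 FPKM in homozygous mice. In heterozygous mice 6 of 6 were above both wildtype values, beside 19.2% of all tested genes. All 6 are also in the mesenchymal list, so this count is not separate from the counts of that list. Leukocyte markers summed to 55.1 to 56.6, 67.3 to 84.7 and 36.2 to 80.0 FPKM, and endothelial markers to 28.9 to 40.8, 48.0 to 49.0 and 41.0 to 49.8 FPKM in the same order. The level of Vim and the sums of fibroblast and leukocyte markers were lowest in mouse 47, although single markers such as Col1a1 (lowest in mouse 39) and Cd3e (highest in mouse 47) were not. Luminal markers summed to 12945 to 13631 FPKM in wildtype, 9592 to 10105 FPKM in heterozygous and 1389 to 8635 FPKM in homozygous mice, and basal markers to 130 to 186, 133 to 135 and 124 to 126 FPKM. The 4 basal markers did not move alike. Trp63 rose with allele number without overlap (3.19 and 3.86, 4.05 and 4.19, 5.54 and 5.94 FPKM), beside 3.85% of all tested genes. Krt15, the most abundant, fell without overlap (93.6 and 131, 86.6 and 92.4, 72.4 and 81.5 FPKM), beside 4.98%. Krt5 and Krt14 were not ordered.

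Skeletal muscle markers summed to 1293 to 1943 FPKM in wildtype, 3661 to 3878 FPKM in heterozygous and 3940 to 4437 FPKM in homozygous mice. All mutant mice were above wildtype for 6 of 6, beside 19.2% of all tested genes for heterozygous and 21.3% for homozygous mice. Smooth muscle markers summed to 1644 to 1944, 1820 to 2264 and 1828 to 2672 FPKM, nerve and Schwann cell markers to 27.9 to 32.2, 42.9 to 47.3 and 30.3 to 39.1 FPKM, and adipocyte markers to 310 to 440, 376 to 472 and 588 to 668 FPKM. Seminal vesicle genes summed to 3346 to 44976, 51577 to 53082 and 26147 to 30189 FPKM, and mesothelial markers to 1.03 to 3.28, 3.20 to 3.90 and 4.16 to 5.62 FPKM. Apart from the seminal vesicle genes, no marker was at 0 in any mouse. The part of these cell types in the levels of the EMT genes was not tested.

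Levels relative to such genes in the same mouse were added after the data had been seen, and carry no test. The reference level of a mouse is subtracted from all genes alike. Within a comparison the differences of all genes therefore shift by the same amount, and the shifts below are not separate results for each gene. Relative to the mean log2 level of the 35 tested epithelial genes, Epcam in homozygous mice was -0.25 from wildtype in place of -0.47, still with no overlap, and Cdh1 was -0.03 in place of -0.25. On the same scale the differences of the transcription factors were larger than before: Snai2 in homozygous mice was 0.81 in place of 0.59, Zeb2 was 0.83 in place of 0.61, and Zeb1 was 0.39 in place of 0.17, with no overlap. Twist1 in heterozygous mice was 0.69 in place of 0.59. Relative to the 6 fibroblast markers, Vim in heterozygous mice was 0.26 from wildtype in place of 0.55, with both heterozygous mice still above wildtype, and Twist1 was 0.31 in place of 0.59, with overlap. Snai2 in homozygous mice was 0.40 on this scale in place of 0.59, with overlap, and Zeb2 was 0.42 in place of 0.61, with no overlap. The epithelial markers lay further from wildtype on the fibroblast scale: Epcam was -0.48 in heterozygous mice in place of -0.19 and -0.66 in homozygous mice in place of -0.47, both with no overlap, and Cdh1 in homozygous mice was -0.44 in place of -0.25, with overlap.

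The genes whose pattern over the 6 mice was most like that of Cdh1 and Vim were sought among 12641 tested genes, as a description, since the mice share genotype and cell makeup. For Cdh1 they were Nf2 (Pearson r = 0.999), Zfp217 (r = 0.995), Esr2 (r = 0.995), Mon1b (r = 0.987) and Leprot (r = 0.987). Nf2 encodes merlin, a membrane-cytoskeleton linker, and was at 29.9 and 26.2 FPKM in wildtype, 25.2 and 26.5 FPKM in heterozygous, and 24.3 and 26.4 FPKM in homozygous mice. For Vim they were Acvrl1 (r = 0.988), Oaf (r = 0.985), Palm (r = 0.983), Mfap5 (r = 0.982) and Il2rg (r = 0.976). Acvrl1 encodes a receptor of the TGF-beta family in endothelium, Mfap5 a microfibril protein of fibroblasts and Il2rg the common gamma chain of interleukin receptors in lymphocytes. Il2rg was at 2.72 and 2.94 FPKM in wildtype, 5.39 and 4.17 FPKM in heterozygous, and 1.61 and 4.25 FPKM in homozygous mice, and was thus lowest, like Vim, in mouse 47.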

How the data were processed

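Stranded mRNA libraries from snap-frozen prostates of 6 mice were sequenced as read pairs. The authors aligned the reads to GRCm38 (mm10) with HISAT and deposited gene-level FPKM made with Cufflinks, and the submitters' processing notes also name bcl2fastq and Cuffnorm. Tool versions and the annotation are not given in the sources used here. FPKM are corrected for gene length and library size, hold no fragment counts, and share each library's total, so that a few very abundant genes (the top 10 held 20.5% to 26.4%) can lower all other values.

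Genotypes were taken from the labels. Linear models of log2(FPKM + 0.1) were fitted with limma 3.58.1 in R 4.3.3 (eBayes with an intensity trend, 3 residual and 2.77 prior degrees of freedom) on the 13818 genes with a mean of at least 1 FPKM, with Benjamini-Hochberg adjustment and a threshold of 0.05. Intervals are 95%. Replicates are separate mice, 2 per genotype. The fit was tested on simulated data. Positions are from GENCODE M21 and promoter windows from RefSeq. Of 124 symbols with several identifiers, the one with the highest mean was used. Python 3.11.15, numpy 2.4.6, pandas 2.3.3 and matplotlib 3.10.9 were used.

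The text names all 10 members, up to 4 genes of each companion list with the largest homozygous difference, and the 5 genes most like Cdh1 and Vim. Tgfb2 and Tgfb3 are given beside Tgfb1, and some single cell type markers are also named. The members and lists were chosen with earlier results of these data known. Alternatives were a pseudocount of 1 or 0.01, no filter, a mean of at least 5 FPKM, median scaling, quantile normalization, no intensity trend, a test on each gene alone and leaving out each mouse. Lists without mouse 47 and levels relative to epithelial or fibroblast genes were added after seeing the data.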

Additional observations from a re-analysis of the deposited data

How the results depend on the processing

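No member passed the adjusted threshold in any comparison under any of the 14 alternatives. Of 366 differences of members recomputed, 344 kept their direction and 22 changed it, each of at most 0.17 in size as reported. The count of members past the unadjusted 1.5-fold criterion, 1 as reported, was 0 with a pseudocount of 1, with a mean of at least 5 FPKM and with quantile normalization. It was 0 to 1 with a mouse left out, where the 1 gene was Zeb2 without mouse 47 and Vim without mouse 49, and never Snai2. The count ordered by allele number, 2 as reported, was 1 with a mean of at least 5 FPKM, which leaves Snai2 untested, and 0 with quantile normalization. The count with no overlap between homozygous and wildtype mice, 3 as reported, was 1 with a mean of at least 5 FPKM. With a mouse left out it was 3 to 8 (8 without mouse 41, 6 without mouse 47 and 6 without mouse 49), where a genotype of 1 mouse overlaps less often by construction. With quantile normalization, Snai1 in homozygous against wildtype mice was -0.10, Snai2 in heterozygous against wildtype mice -0.03, Fn1 in homozygous against wildtype mice 0.09 and Cdh1 in homozygous against heterozygous mice 0.11, and the cause was not tested.

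With 1 mouse left out in turn, the difference of homozygous to wildtype mice ranged from -0.14 to 0.21 for Snai1, from -0.05 to 0.39 for Zeb1, from -0.27 to 0.39 for Vim and from -0.27 to 0.19 for Fn1. That of heterozygous to wildtype mice ranged from -0.08 to 0.36 for Zeb1 and from -0.10 to 0.31 for Fn1. That of homozygous to heterozygous mice ranged from -0.16 to 0.23 for Zeb1, from -0.22 to 0.49 for Zeb2, from -0.15 to 0.07 for Cdh1 and from -0.38 to 0.09 for Fn1. No paired analysis was possible because the labels name no litter, batch or other link between mice of different genotypes. The files hold no fragment counts, so what depth limits could not be measured. For Cdh2 only the fit without a filter gave values.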
